A study of Mus musculus with 13 samples.

Results

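The chemokines and chemokine receptors were described in single-cell RNA libraries from colon tumors and adjacent colon mucosa of mice. Members were the rows of the deposited gene list whose symbol began with Ccl, Cxcl, Cx3cl, Xcl, Ccr, Cxcr, Cx3cr or Xcr followed by a digit, together with Pf4, Ppbp and the atypical receptors Ackr1, Ackr2, Ackr3 and Ackr4. No measured value entered that choice. It gave 69 rows of 32285, which carried 63 symbols, 40 of ligands and 23 of receptors. UMIs (unique molecular identifiers, 1 for each captured transcript) were found for 58 of the 69 rows. The other 11 had none in any library, and they included the symbols Ccl21b, Ccl21c, Ccl26, Ccl27b and Ccr1l1. The remaining 6 were second rows of a symbol that was listed more than once.

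All 13 libraries came from 3 C57BL/6J mice that carried ApcMin/+ and p16cis/cis, and all 3 mice ate the supplemented diet, a feed enriched in folic acid, vitamin B12, betaine and choline. ApcMin is a truncating mutation of the tumor suppressor Apc, and p16cis marks an engineered epimutation of p16. Mouse A, at 24 weeks, gave mucosa 2 and tumors 5 to 8. Mouse B, at 23 weeks, gave mucosa 3 and tumors 9 and 10, and mouse C, at 20 weeks, gave mucosa 1 and tumors 1 to 4. The groups were therefore 10 colon tumors and 3 samples of adjacent mucosa, with the tumors of 1 mouse sharing a host. No mouse on another diet or of another genotype was analysed here. Mucosa was dissociated with EDTA and then TrypLE and tumors with a tumor dissociation kit, so tissue and dissociation cannot be told apart in any comparison of tumor with mucosa. The summed level of 8 early-response and heat-shock genes that can rise on dissociation was 2045 to 3660 UMIs per 1000000 (CPM) in tumors and 808 to 906 CPM in mucosa.

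Chemokines are small secreted or membrane-anchored proteins that bind G protein-coupled receptors on leukocytes and set the direction in which those cells move. Most receptors answer to several ligands, and the ligands of one receptor often lie side by side in the genome as copies of an ancestral gene. In the intestine, some pairs serve steady homing, such as Ccl25 with Ccr9 and Ccl28 with Ccr10, and others are induced in inflammation, such as the neutrophil-attracting ligands of Cxcr2. Atypical receptors bind chemokines without the usual signal and remove them.

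Of 137591 deposited barcodes, 108495 were kept as cells, 85953 from tumors and 22542 from mucosa. Tumor libraries held 57221300 to 93157039 UMIs and mucosa libraries 84883382 to 116133079. Between any 2 libraries, 9 to 34 barcode sequences were shared. The labels call 7 libraries female and give both sexes within 1 mouse, whereas all 13 libraries held Y-linked UMIs (6130 to 10081) and 1 to 8 Xist UMIs. Cells fell into 38 clusters, which were named as classes from fixed marker genes with the members held out of the clustering. The class called Inhba+ macrophage-like took its name from a marker list labeled for Spp1, but Inhba and Arg1 were among its top 10 genes and Spp1 was not. Spp1 stood at 1491 ± 951 CPM in its cells (mean ± SD over 3 mice) and at 2277 ± 866 CPM in C1q+ macrophage-like cells, which were higher in 7 of 10 tumors, whereas Inhba stood at 1236 ± 331 and 65.3 ± 33.2 CPM. Neutrophil-like cells made up 22.8% to 37.9% of the cells of each tumor (26610 cells in all) against 67 cells in the 3 mucosa libraries together. Classes with too few mucosa cells, among them neutrophil-like, C1q+ and Inhba+ macrophage-like, Paneth-like and tumor epithelial-like cells, were not compared between tissues. In sums over a whole library, fewer cells of a type and less RNA per cell cannot be told apart.

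Summed over all cells, the members took 0.408% to 0.982% of a tumor library's UMIs (median 0.685%) and 0.0920% to 0.237% of a mucosa library's. Cxcl2 held 43.8% to 59.1% of the members' UMIs in tumors and 0.125% to 1.12% in mucosa. Ccl5 held the largest part in mucosa, 52.5% to 77.3%, against 2.32% to 7.27% in tumors. Of 56 members tested between tumor and mucosa, 41 were higher in tumors and 6 lower by edgeR's quasi-likelihood test at an adjusted p of 0.05. In the same test, 36.0% of all 17437 genes were higher and 34.0% lower, so 70.0% passed it in one direction or the other. The median log2 fold change was 3.82 over the members tested and 0.026 over all genes tested. Ligands were called higher for 26 and lower for 5 of 35, and receptors higher for 15 and lower for 1 of 21. All 10 tumors lay above all 3 mucosa libraries for 38 of the 56, and all 3 mucosa libraries lay above all tumors for 2, Ccl28 and Cx3cl1; groups did not overlap for 52.6% of all genes. Ackr2 (24 UMIs in tumors and 33 in mucosa) and Ccl19 (21 and 0) were too low to test.

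**Figure D1:**
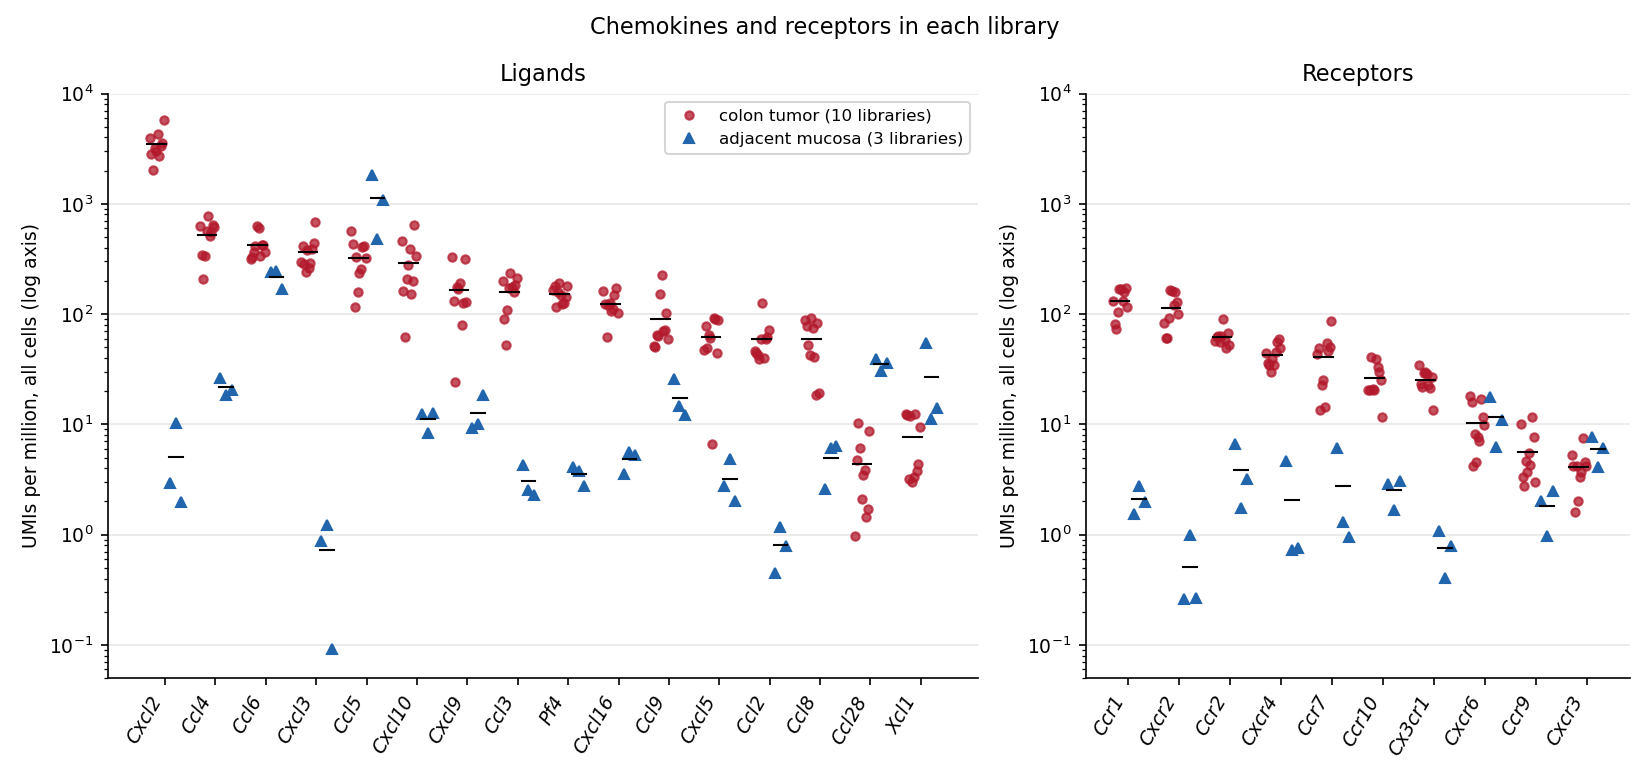
Level of 16 ligands and 10 receptors in each library, over all cells, as CPM on a log axis; red points are the 10 tumors, blue triangles the 3 mucosa samples and black lines group means. Cxcl2 sat between 2008 and 5806 in tumors and between 1.98 and 10.3 in mucosa, whereas Ccl28 sat between 0.980 and 10.3 in tumors and between 30.4 and 38.8 in mucosa.

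Cxcr2 is the receptor that guides neutrophils, and it and its ligands had the highest median difference of the axes counted. All 8 members tested in this axis were higher in tumors, where 36.0% of all genes were, with a median log2 fold change of 7.40. Cxcl1, Cxcl2 and Cxcl3 lie within 1 segment of chromosome 5 (chr5:90759360-90905938, mm10) that also holds Cxcl5, Cxcl15, Ppbp and Pf4, and all 7 of its members were higher in tumors. The 130 bases before the start of these 3 neighbors are shown because the genes were among the members with large differences and share a sequence element. They are given from RefSeq on GRCm38.p6, plus strand, with the longest run of bases that all 3 windows share in capitals.
Cxcl1 (chr5:90891115-90891244): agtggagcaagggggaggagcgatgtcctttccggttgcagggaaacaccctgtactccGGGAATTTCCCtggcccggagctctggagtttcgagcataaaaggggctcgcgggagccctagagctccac
Cxcl2 (chr5:90903769-90903898): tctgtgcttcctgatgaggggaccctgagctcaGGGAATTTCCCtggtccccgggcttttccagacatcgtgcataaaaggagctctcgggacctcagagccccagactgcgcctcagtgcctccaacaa
Cxcl3 (chr5:90785971-90786100): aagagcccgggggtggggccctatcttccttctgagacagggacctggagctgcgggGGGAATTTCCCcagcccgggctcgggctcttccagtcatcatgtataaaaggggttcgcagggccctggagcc
The shared run, GGGAATTTCCC, has 11 letters, which include those of a binding site of the NF-kappaB family. It began 71 bases before the RefSeq start of Cxcl1, 97 before that of Cxcl2 and 73 before that of Cxcl3. The GENCODE starts of Cxcl1 (90891241) and Cxcl2 (90903871) lie inside their windows. On either strand of the 250 bases before a start, the letters of the run occurred in 11 of 27025 promoters (0.0407%). Among the 48 members with a promoter sequence they occurred in 3, Cxcl1, Cxcl2 and Cxcl3. The run was found in these sequences and then counted, so the count describes it and tests nothing, and a match of letters is not a measure of binding.

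Cxcl2, which draws neutrophils, stood at 2.95, 10.3 and 1.98 CPM in mucosa 1, 2 and 3 and at 2008, 3269 and 5806 CPM (lowest, median and highest) in tumors. The groups did not overlap, and the mean was 3465 ± 1048 CPM (SD, n = 10) against 5.06 ± 4.53 CPM (n = 3). The log2 fold change was 9.41 ± 0.71 (SE, adjusted p = 1.13e-07), and 10.49 without mucosa 2. Cxcl3, a ligand of the same receptor, stood at 0.868, 1.22 and 0.0925 CPM in mucosa and at 243, 336 and 680 CPM in tumors (9.00 ± 0.74, and 9.65 without mucosa 2). Cxcl1 stood at 0.362, 1.21 and 0.636 CPM in mucosa and at 18.7, 44.5 and 68.1 CPM in tumors (5.77 ± 0.63). Every tumor was above every mucosa library for these ligands. Cxcl5, made mainly by epithelium, ran from 2.04 to 4.86 CPM in mucosa and in tumors from 6.66 CPM, in tumor 6, through a median of 62.7 to 92.2 CPM (4.26 ± 0.67, adjusted p = 6.7e-05). Tumor 6 was thus much nearer to mucosa than the other tumors were, without overlapping it. The low members Ppbp, the precursor of a platelet chemokine, and Cxcl15 had 1161 and 82 UMIs in tumors against 1 and 3 in mucosa, with tumor over mucosa ratios of 414 (exact 95% counting interval 74.2 to 16366) and 9.75 (3.22 to 48.2). Without mucosa 3 the first was at least 86.7-fold and the second 18.4. The 8 platelet and megakaryocyte marker genes summed to 5.05 to 7.85 CPM in tumors, with all 8 detected, and to 2.84 to 6.65 CPM in mucosa, where Tubb1 was at 0; their part in the Ppbp difference was not tested. C1q+ macrophage-like cells carried 75.2% of the Ppbp UMIs of tumors (55.4% to 90.3%), at 21.3 ± 7.2 CPM.

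Cxcr2 stood at 0.260, 0.987 and 0.266 CPM in mucosa and at 60.1, 111 and 165 CPM in tumors, a log2 fold change of 7.79 ± 0.62 (adjusted p = 1.7e-07) and 8.75 without mucosa 2. The related receptor Cxcr1 stood at 2.36 to 5.62 CPM in tumors and at 0.013 to 0.035 CPM in mucosa (7.0 ± 0.41). Neutrophil-like cells carried 98.3% of the Cxcr2 UMIs of tumors (97.2% to 98.9%) and 97.6% of those of Cxcr1. The 10 neutrophil marker genes moved the same way, at 17873 to 32784 CPM in tumors and 93.4 to 217 CPM in mucosa.

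By class, levels in tumors are given as the mean ± SD over the 3 mice, as a description without a test. Cxcl2 was highest in Inhba+ macrophage-like cells (19000 ± 4472 CPM) and neutrophil-like cells (17813 ± 4425 CPM). These 2 classes did not differ beyond their spread: the first was higher in 6 of 10 tumors, and the order turned without mouse A. Ly6c+ monocyte-like cells followed at 3032 ± 144 CPM and plasma cell-like cells were lowest at 24.4 CPM. Neutrophil-like cells, the most numerous class, carried 55.9% of the Cxcl2 UMIs of tumors (39.7% to 68.3%) and Inhba+ macrophage-like cells 27.3%. Cxcl3 was higher in Inhba+ macrophage-like cells (4409 ± 900 CPM) than in neutrophil-like cells (1063 ± 359 CPM) in 10 of 10 tumors. Cxcl1 was highest in Inhba+ macrophage-like cells too (209 ± 90 CPM), but tumor epithelial-like cells (60.4 ± 30 CPM) carried 44.7% of its UMIs. Cxcl5 had an epithelial pattern, at 231 ± 101 CPM in absorptive epithelial-like and 173 ± 28 CPM in tumor epithelial-like cells, the latter with 84.2% of its UMIs (65.4% to 95.3%).

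Within the neutrophil-like class, ligands and receptor followed different clusters. The cluster led by Ccrl2 held 26960 ± 3233 CPM of Cxcl2, 5359 ± 914 CPM of Ccl3 and 6387 ± 605 CPM of Ccl4. The cluster led by G0s2 held 21469 ± 3644 CPM of Cxcl2, 423 CPM of Ccl3 and 3153 CPM of Ccl4. The cluster led by Ngp and Retnlg, genes of younger neutrophils, held 7640 ± 1775 CPM of Cxcl2. Cxcr2 did not follow the ligands: it stood at 996 ± 211 CPM in the G0s2 cluster, at 968 ± 210 CPM in the Ngp and Retnlg cluster and at 180 ± 28 CPM in the Ccrl2 cluster. Median UMIs per cell were 1940.5 in the Ccrl2 cluster, 2568 in the G0s2 cluster and 2761 in the Ngp and Retnlg cluster, and their part in these values was not tested.

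**Figure D2:**
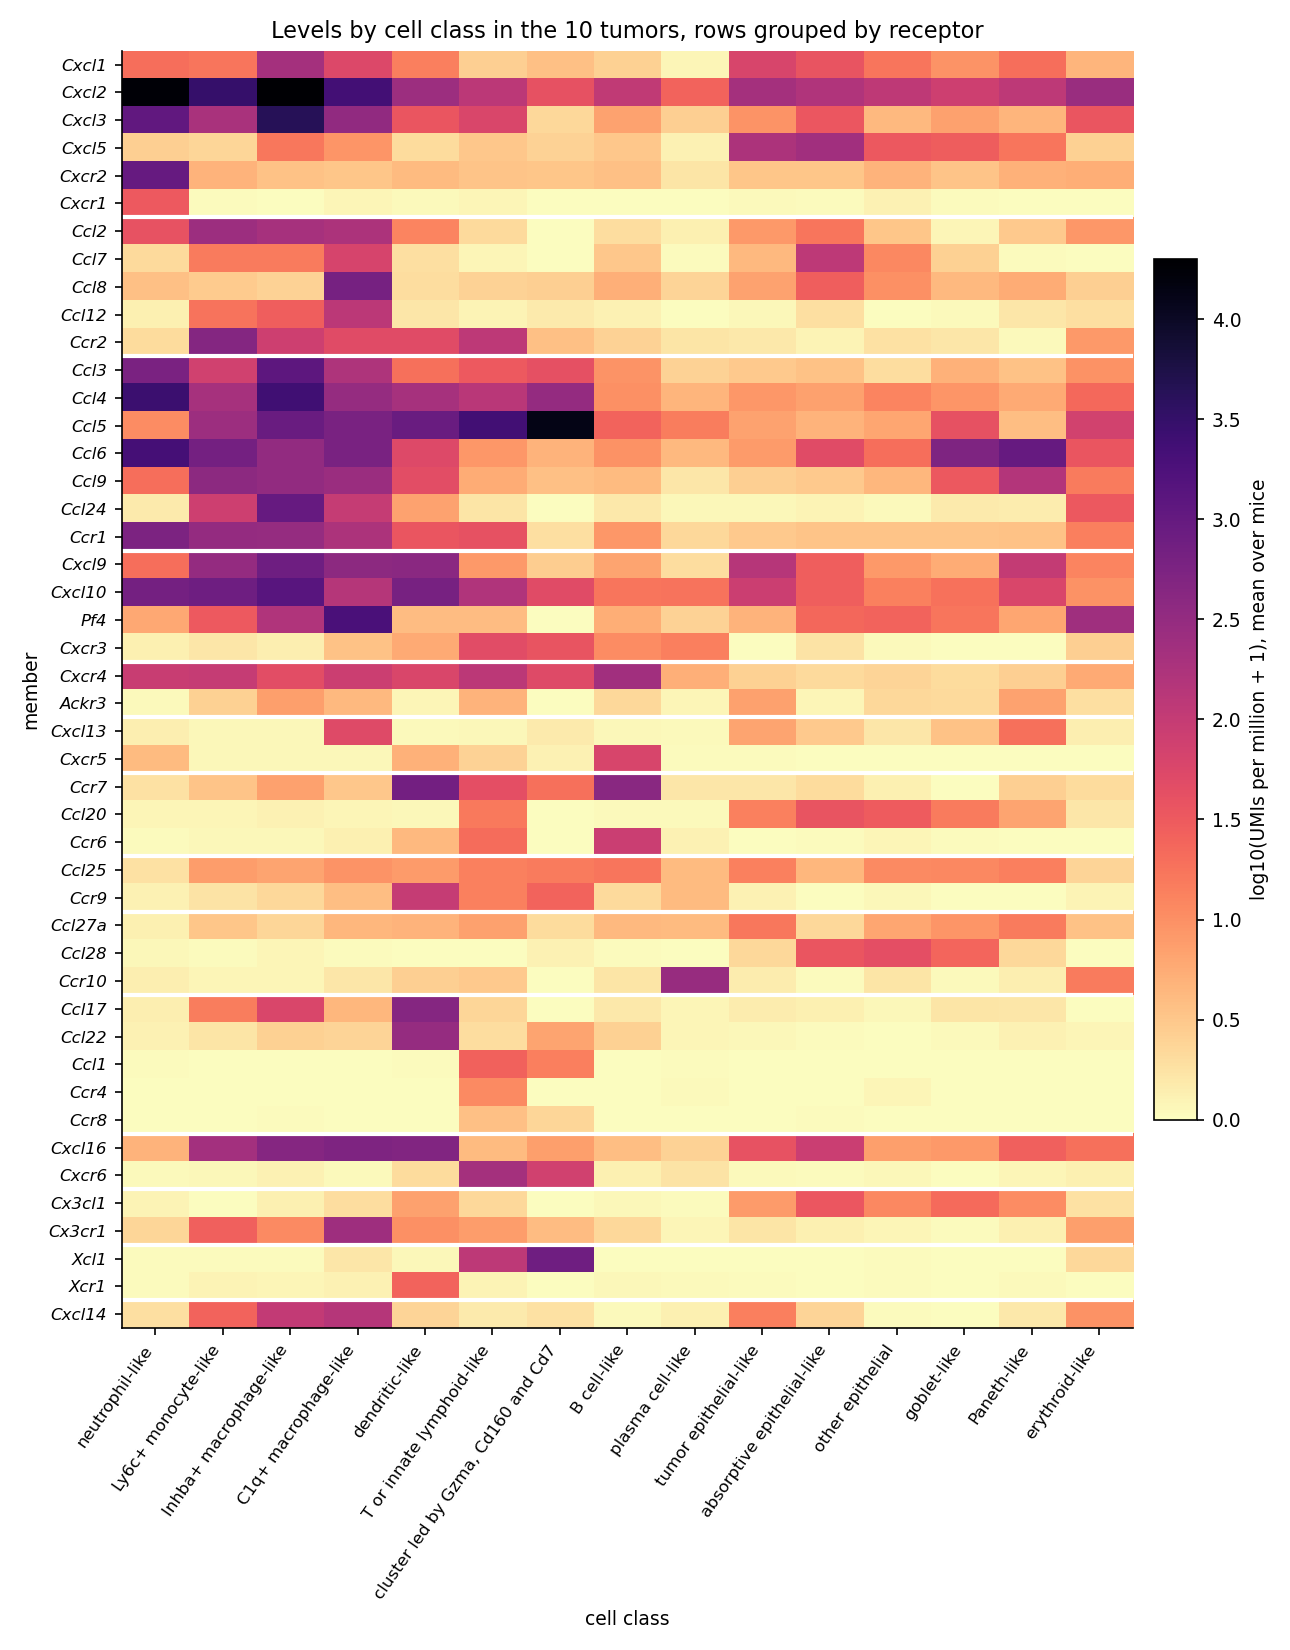
Level of 46 members (rows, grouped by receptor with white lines between groups) in 15 cell classes of the tumors (columns); color is log10 of CPM plus 1, averaged over the 3 mice. Neutrophil-like and Inhba+ macrophage-like cells are darkest for Cxcl2, the Gzma cluster for Ccl5, plasma cell-like cells for Ccr10 and C1q+ macrophage-like cells for Pf4 and Ccl8.

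The ligands grouped here with Ccr2, a receptor that calls monocytes out of the blood, were higher in tumors together with it. All 5 of 5 members were higher, where 36.0% of all genes were, with a median log2 fold change of 4.02. Ccl2 stood at 0.448, 1.17 and 0.786 CPM in mucosa and at 38.8, 52.6 and 126 CPM in tumors, with no overlap (6.20 ± 0.53). Ccl12, a related ligand, stood at 0.058 to 0.21 CPM in mucosa and at 5.62, 13.6 and 21.0 CPM in tumors (6.74 ± 0.55, and 7.33 without mucosa 2). Ccl8 stood at 2.62, 6.05 and 6.34 CPM in mucosa and at 18.6, 63.5 and 91.8 CPM in tumors (3.56 ± 0.61). Each of these separated tumors from mucosa. Ccl7 stood at 0.116, 5.30 and 1.76 CPM in mucosa and at 6.96, 11.4 and 15.9 CPM in tumors. Its log2 fold change was 2.21 ± 0.67 (adjusted p = 0.0094), rose to 3.56 without mucosa 2, and was no longer called when the tumors of a mouse were summed (adjusted p = 0.0742). Ccr2 itself stood at 6.64, 1.75 and 3.23 CPM in mucosa and at 49.3, 59.8 and 89.8 CPM in tumors, every tumor above every mucosa library (4.02 ± 0.36, and 4.61 without mucosa 1).

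Ccl8, Ccl12 and Ccl2 were found mainly in macrophage-like and monocyte-like cells of tumors. Ccl8 was found mainly in C1q+ macrophage-like cells, at 646 ± 105 CPM and with 90.6% of its UMIs, and so was Ccl12, at 122 ± 30 CPM and with 70.9%. Ccl2 was spread more widely, with 43.5% of its UMIs in Ly6c+ monocyte-like cells at 258 ± 90 CPM. Ccl7 was highest in absorptive epithelial-like cells (119 ± 79 CPM), ahead of C1q+ macrophage-like cells (61.8 ± 25.6 CPM) in 7 of 10 tumors, and C1q+ macrophage-like cells carried 41.7% of its UMIs against 19.0%. Ccr2 stood at 450 ± 43 CPM in Ly6c+ monocyte-like cells, which held 74.6% of its UMIs, and at 120 ± 25 CPM in T or innate lymphoid-like cells.

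A further group held inflammatory CC ligands of monocytes, eosinophils and T cells with the receptors Ccr1 and Ccr3. Ccl4, an attractant of T cells and monocytes, stood at 26.6, 18.5 and 20.4 CPM in mucosa and at 208, 560 and 768 CPM in tumors (4.58 ± 0.43). Ccl3, a ligand of Ccr1, stood at 4.31, 2.54 and 2.30 CPM in mucosa and at 52.3, 173 and 233 CPM in tumors (5.72 ± 0.53). Neither ligand overlapped between the groups. Ccl6, a ligand of Ccr1 in rodents, was abundant in both tissues, at 241, 244 and 170 CPM in mucosa and 314, 393 and 629 CPM in tumors (0.95 ± 0.23, adjusted p = 0.00206). Its neighbor Ccl9 stood at 25.8, 14.5 and 12.1 CPM in mucosa and at 50.1, 67.0 and 225 CPM in tumors (2.39 ± 0.52). Both were higher in each tumor than in each mucosa library. The eosinophil attractant Ccl24 stood at 0.231, 0.013 and 0.173 CPM in mucosa and at 12.5, 40.5 and 126 CPM in tumors (8.63 ± 1.21). Ccl11, a ligand of Ccr3, was low throughout, with 4 mucosa UMIs and 581 tumor UMIs, with a log2 fold change of 5.50 ± 1.90 (adjusted p = 0.0191) that fell to 4.17 without tumor 5 and was not called without mucosa 2 or mucosa 3.

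Ccl5, which recruits T cells, was a ligand of this group that went the other way. It stood at 1833, 483 and 1072 CPM in mucosa and at 115, 328 and 572 CPM in tumors. The ranges overlapped, since mucosa 2 lay below the highest tumor, and the log2 fold change was −1.77 ± 0.41 (adjusted p = 0.00152). Among the receptors, Ccr1 stood at 1.55, 2.75 and 1.99 CPM in mucosa and at 73.7, 131 and 172 CPM in tumors (5.95 ± 0.39). All tumors were above mucosa. Ccr3, the receptor of eosinophils, had 74 UMIs in tumors against 0 in mucosa and was at least 8.80-fold higher, by a floor of 3 counts over the group.

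In tumors Ccl4 was carried mainly by neutrophil-like cells (61.8% of its UMIs, at 2758 ± 247 CPM), with Inhba+ macrophage-like cells at 2434 ± 990 CPM; the order of the 2 classes turned without mouse C. Ccl3 was highest in Inhba+ macrophage-like cells (1221 ± 615 CPM), above neutrophil-like cells (573 ± 59 CPM) in 7 of 10 tumors. Ccl6 was highest in neutrophil-like cells (2136 ± 201 CPM) with Paneth-like cells next (965 ± 306 CPM), whereas in mucosa 93.4% of its UMIs were in goblet-like cells, at 765 ± 246 CPM. Goblet-like cells also held 88.8% of the Ccl9 UMIs of mucosa, and in tumors Ly6c+ monocyte-like cells held 45.7%, at 378 ± 124 CPM. Ccl24 was 72.1% from Inhba+ macrophage-like cells, at 962 ± 727 CPM. Ccr1 was higher in neutrophil-like cells (565 ± 73 CPM) than in Ly6c+ monocyte-like cells (311 ± 59 CPM) in 10 of 10 tumors.

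**Figure D3:**
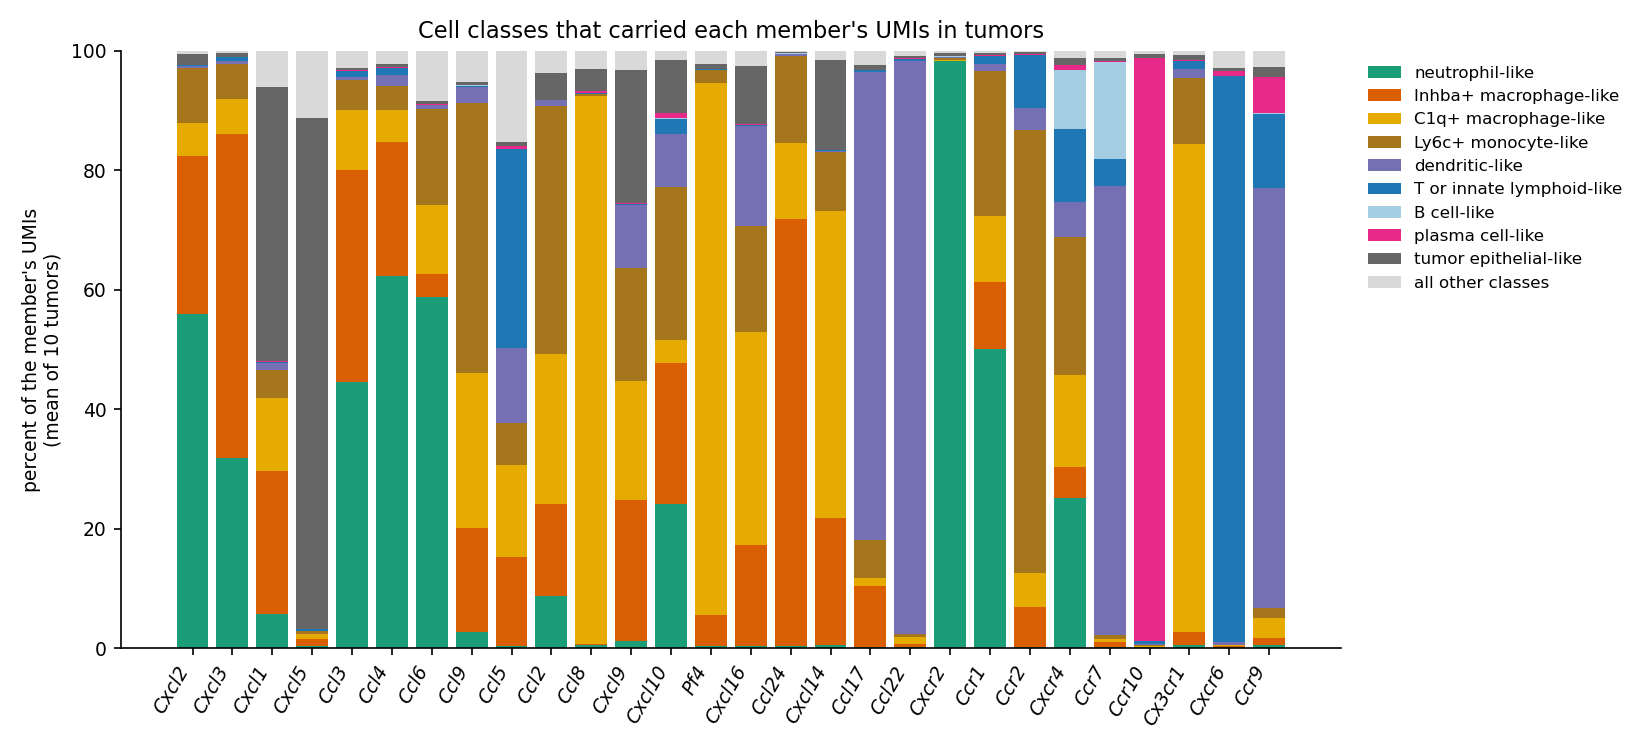
Share of each member's tumor UMIs carried by each cell class, as the mean over the 10 tumors in percent, for 19 ligands and 9 receptors; the colors are cell classes and each bar adds to 100. Neutrophil-like cells take most of the bar for Cxcr2, C1q+ macrophage-like cells for Ccl8 and Pf4, plasma cell-like cells for Ccr10 and tumor epithelial-like cells for Cxcl5.

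The ligands of Cxcr3, which are induced by interferon and recruit effector T cells, were higher in tumors, whereas their receptor did not pass the test. Cxcl10 stood at 12.5, 8.30 and 12.7 CPM in mucosa and at 62.0, 244 and 636 CPM in tumors (4.72 ± 0.70). Cxcl9 stood at 9.17, 10.1 and 18.6 CPM in mucosa and at 24.1, 150 and 328 CPM in tumors (3.73 ± 0.70). Every tumor exceeded every mucosa library for both, and the highest tumor exceeded the lowest by 10.3-fold for Cxcl10 and 13.6-fold for Cxcl9. Cxcr3 stood at 7.72, 4.08 and 6.05 CPM in mucosa and at 1.61, 4.17 and 7.58 CPM in tumors, with overlapping ranges (−0.53 ± 0.35, adjusted p = 0.186). Pf4, the platelet factor that is also made by macrophages, was among the most even members, at 4.06, 3.77 and 2.75 CPM in mucosa and 115, 154 and 191 CPM in tumors (5.45 ± 0.25, adjusted p = 2.5e-09). C1q+ macrophage-like cells carried 89.1% of the Pf4 UMIs of tumors, at 1910 ± 558 CPM. Inhba+ macrophage-like cells had the highest level of Cxcl9 (776 ± 164 CPM, with dendritic-like cells at 399 ± 165 CPM) and of Cxcl10 (1360 ± 482 CPM, with Ly6c+ monocyte-like cells at 788 ± 338 CPM). Cxcr3 was highest in T or innate lymphoid-like cells, at 46.5 ± 3.5 CPM.

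Cxcr4, which holds cells near its ligand Cxcl12, stood at 4.67, 0.727 and 0.752 CPM in mucosa and at 29.8, 41.7 and 58.9 CPM in tumors. Every tumor was above mucosa, with a log2 fold change of 4.42 ± 0.55, and 5.82 without mucosa 1. Its highest class was B cell-like (228 ± 23 CPM), then T or innate lymphoid-like (122 ± 24 CPM), and goblet-like cells were lowest at 1.07 CPM. Cxcl12 was low, with 438 UMIs in tumors and 6 in mucosa (4.55 ± 1.32, adjusted p = 0.0069, and 5.53 without mucosa 1). Fibroblast-like cells carried 36.9% of its tumor UMIs on average, from 0% to 84.6% in single tumors. For Ccl11, C1q+ macrophage-like cells carried 33.2% of the UMIs on average and fibroblast-like cells 28.3%. This average does not weigh tumors by their UMIs, and without tumor 5 only 195 of the 581 Ccl11 UMIs of tumors were left. The 9 fibroblast marker genes, all detected in both tissues, summed to 56.2 to 446 CPM in tumors and 6.34 to 12.1 CPM in mucosa, and their part in the differences of Cxcl12 and Ccl11 was not tested. Ackr3, an atypical receptor that takes up Cxcl12, stood at 0.571 to 1.43 CPM in mucosa and 1.14 to 4.74 CPM in tumors (1.61 ± 0.43), with overlap. Cxcl14, whose receptor is not settled, stood at 0, 0.013 and 0.0694 CPM in mucosa and at 14.6, 20.5 and 46.1 CPM in tumors. Its groups lay far apart (9.53 ± 0.70, and 11.39 without mucosa 3), with C1q+ (142 ± 16 CPM) and Inhba+ (103 CPM) macrophage-like cells highest. Cxcl17, the other ligand without a settled receptor, had 97 and 22 UMIs (0.65, adjusted p = 0.470).

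Receptors that guide lymphocytes and dendritic cells to lymphoid tissue split between called and uncalled. Ccr7, the lymph node homing receptor, stood at 6.10, 1.30 and 0.948 CPM in mucosa and at 13.5, 44.7 and 85.7 CPM in tumors, without overlap (3.90 ± 0.75, and 5.15 without mucosa 1). Cxcl13, which attracts B cells, stood at 0.555 to 0.584 CPM in mucosa and at 2.21, 5.13 and 11.4 CPM in tumors (3.42 ± 0.53), and its highest mean was in C1q+ macrophage-like cells (50.05 ± 29.1 CPM), above Paneth-like cells (18.5 ± 9.3 CPM) in 5 of 9 tumors. Its receptor Cxcr5 did not pass the test (1.24, adjusted p = 0.15). Ccr6, a receptor of B cells and some T cells, did not pass either (−0.32, adjusted p = 0.679). It stood at 6.26 CPM in tumor 7 and 8.74 CPM in tumor 10 but at 0.819 to 2.28 CPM in the other tumors, and at 4.80, 2.10 and 2.90 CPM in mucosa. B cell-like cells made up 18.1% of the cells of tumor 7 and 22.7% of those of tumor 10. The ligand of Ccr6, Ccl20, stood at 3.47, 2.41 and 1.91 CPM in mucosa and at 2.73, 7.35 and 12.8 CPM in tumors (1.61 ± 0.36), with overlap. Ccl21a, a ligand of Ccr7, was not called (3.35, adjusted p = 0.142), and its near-identical copies make its reads uncertain.

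By class, Ccr7 was highest in dendritic-like cells (690.5 ± 235 CPM) and above B cell-like cells (405 ± 38 CPM) in 9 of 10 tumors. Within dendritic-like cells, the cluster led by Fscn1 and Il4i1 held 2074 ± 215 CPM of Ccr7, 947 ± 109 CPM of Ccl22, 730 ± 108 CPM of Ccl17 and 899 ± 142 CPM of Cxcl16. The cluster led by Cd209a held 139, 61.1, 374 and 348 CPM of the same 4 members. Ccr9 instead stood out in the cluster led by Siglech, a gene of plasmacytoid dendritic cells, at 1310 ± 267 CPM. Cxcr5 (60.1 ± 13.6 CPM) and Ccr6 (84.8 ± 6.5 CPM) were highest in B cell-like cells.

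The ligands of Ccr4, a receptor of regulatory and helper T cells, were higher in tumors. Ccl17 stood at 0.463, 0.247 and 0.127 CPM in mucosa and at 5.26, 25.6 and 37.1 CPM in tumors (6.48 ± 0.66). Ccl22 stood at 0.651, 0.130 and 0 CPM in mucosa and at 4.85, 13.3 and 20.0 CPM in tumors (5.71 ± 0.81, with 7.64 without mucosa 1 and 5.09 without mucosa 3). The groups were apart for both, and dendritic-like cells carried 78.5% of the Ccl17 UMIs and 96.0% of the Ccl22 UMIs of tumors. Ccr4 itself fell short of the threshold (0.90, adjusted p = 0.0543), and Ccr8 had 85 UMIs in tumors against 1 in mucosa, for a ratio of 30.3 (exact 95% counting interval 5.30 to 1211), and at least 7.10-fold without mucosa 1. Ccl1, a ligand of Ccr8, was not called (0.27, adjusted p = 0.818), and its value was 2.61 without mucosa 1.

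Pairs known for homing in the gut moved unequally. Ccl28, an epithelial ligand that attracts IgA plasma cells through Ccr10, stood at 38.8, 30.4 and 36.1 CPM in mucosa and at 0.980, 3.70 and 10.3 CPM in tumors. Every mucosa library was above every tumor, with a log2 fold change of −3.03 ± 0.50 (adjusted p = 0.000105). Ccr10 stood at 2.86, 1.66 and 3.08 CPM in mucosa and at 11.6, 23.2 and 40.7 CPM in tumors (3.37 ± 0.38), and plasma cell-like cells carried 97.6% of its tumor UMIs at 289 ± 18 CPM. Ccl25, the small-intestinal ligand of Ccr9, stood at 8.76, 12.1 and 11.8 CPM in mucosa and at 7.44, 8.10 and 9.78 CPM in tumors. The ranges overlapped, and the small difference (−0.40 ± 0.11, adjusted p = 0.00485) was not called with the tumors of a mouse summed (adjusted p = 0.101). Ccr9 stood at 2.01, 0.974 and 2.49 CPM in mucosa and at 2.77, 4.46 and 11.6 CPM in tumors (1.65 ± 0.50, adjusted p = 0.0094), and was not called without mucosa 2 (adjusted p = 0.0540). Ccl27a, the other Ccr10 ligand with UMIs, was not called (0.11, adjusted p = 0.758).

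Cx3cl1, the membrane-anchored fractalkine, stood at 9.57, 10.7 and 9.93 CPM in mucosa and at 3.44, 4.20 and 5.65 CPM in tumors. All mucosa values were higher than all tumor values (−1.23 ± 0.12, adjusted p = 1.08e-06). Its receptor Cx3cr1 went up, from 1.07, 0.402 and 0.786 CPM in mucosa to 13.5, 25.2 and 34.5 CPM in tumors (5.08 ± 0.36), with 81.0% of its tumor UMIs in C1q+ macrophage-like cells at 251 ± 25 CPM. Cxcl16, another membrane-anchored ligand, stood at 3.54, 5.65 and 5.23 CPM in mucosa and at 62.4, 123 and 172 CPM in tumors (4.69 ± 0.35). Its receptor Cxcr6, which marks tissue-resident T cells, stood at 17.8, 6.23 and 11.1 CPM in mucosa and at 4.19, 9.02 and 18.0 CPM in tumors and was not called (−0.14 ± 0.45, adjusted p = 0.792). T or innate lymphoid-like cells carried 95.2% of the Cxcr6 UMIs of tumors, at 209 ± 40 CPM and at 275 ± 47 CPM in the cluster led by Il17a and Icos. Xcl1, a ligand of cytotoxic lymphocytes, stood at 54.7, 11.3 and 14 CPM in mucosa and at 2.98, 6.97 and 12.5 CPM in tumors. Its difference (−1.77 ± 0.53, adjusted p = 0.0086) rested on mucosa 1, since without it the value was −0.74 (adjusted p = 0.261). Xcr1, which marks cross-presenting dendritic cells, had 926 UMIs in tumors and 9 in mucosa (5.06 ± 0.95, with 9.56 without mucosa 1 and 4.44 without mucosa 3).

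The remaining atypical receptors were low. Ackr4, which clears ligands of Ccr7 and Ccr9, stood at 1.66, 0.415 and 0.347 CPM in mucosa and at 0, 0.0143 and 0.593 CPM in tumors, with overlap through tumor 5 alone. It was called lower (−3.34 ± 1.03, adjusted p = 0.0104) but not without mucosa 1 (−2.32, adjusted p = 0.110), and its value was −5.24 without tumor 5. In mucosa, enteroendocrine-like cells held 85.0% of its UMIs, at 50.8 ± 19.8 CPM; the tuft cell genes Dclk1, Rgs13 and Sh2d6 were among the top 10 of that cluster beside the hormone genes, so the class may hold both cell types. Ackr1, of venous endothelium and red cells, had 212 and 6 UMIs (3.59 ± 1.46, adjusted p = 0.0402) and was not called without any 1 of the mucosa libraries. The 9 endothelial marker genes summed to 12.3 to 34.5 CPM in tumors, with all 9 detected, and to 3.93 to 7.59 CPM in mucosa, where Emcn was at 0, and their part in the Ackr1 difference was not tested. With Ccrl2, a related receptor that is no member by symbol, 3 of the 4 atypical receptors tested were higher and 1 was lower. Ccrl2 stood at 101 ± 44 CPM in tumors and 2.48 ± 0.31 CPM in mucosa (5.36 ± 0.49, adjusted p = 5.9e-07). Of 30 genes that carry the signal of chemokine receptors inside the cell, 21 were higher and 2 lower over all cells, against the 36.0% and 34.0% of all genes, among them the arrestin Arrb2 (2.85) and the kinase Fgr (4.19) higher and Gnb2 (−0.54) and Plcb3 (−1.70) lower; the median of the list was 1.45. In epithelial cells the same list had 6 higher and 8 lower of 29 tested, where 34.1% of all genes were higher and 30.4% lower, with a median of −0.17.

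Neighboring members on the genome went 1 way in some groups and both ways in others. Over all cells, 36.0% of all genes were higher in tumors and 34.0% lower. On chromosome 11, 5 of 6 members of chr11:82035571-82305690 (Ccl2, Ccl7, Ccl11, Ccl12 and Ccl8) were higher in tumors, and Ccl1 was not called. In the next group, chr11:83525778-83664683, Ccl3, Ccl4, Ccl6 and Ccl9 were higher and Ccl5 lower. On chromosome 8, Ccl17 and Ccl22 flank Cx3cl1 within chr8:94745590-94812036, and both were higher while Cx3cl1 was lower. Coordinates are those of mm10.

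All epithelial classes of a library were then summed (16688 cells from tumors and 14808 from mucosa), although the mix of these classes differed between the tissues. Here 25 members were higher in tumors and 5 lower of 38 tested, where 64.5% of all 15493 genes passed the test, 34.1% higher and 30.4% lower, and 46.5% did not overlap. The median log2 fold change was 2.46 over the members and 0.045 over all genes. Receptors made up 9 of the 25, among them Cx3cr1, Ccr7 and Ccr2, with 184, 183 and 154 UMIs in tumor epithelium. Over all tumor cells these receptors had 16683, 25545 and 40295 UMIs. The part of free RNA in their epithelial counts was not tested. The 6 tested members of the Cxcr2 axis, Cxcr2 among them, were all higher, with a median of 5.34. Cxcl5 stood at 3.22, 5.12 and 2.23 CPM in mucosa and at 16.4, 124 and 228 CPM in tumors (5.01 ± 0.70). Cxcl1 stood at 0.406, 1.27 and 0.698 CPM in mucosa and at 17.3, 50.9 and 83.8 CPM in tumors (5.67 ± 0.70). Cxcl2 stood at 0.66, 1.58 and 1.31 CPM in mucosa and at 52.1, 203 and 262 CPM in tumors (6.93 ± 0.57). None of these overlapped.

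Other epithelial ligands were higher as well. Ccl20 stood at 3.96, 2.52 and 1.82 CPM in mucosa and at 6.51, 15.5 and 24.9 CPM in tumors (2.30 ± 0.36). Cxcl16 stood at 2.49, 4.63 and 3.72 CPM in mucosa and at 17.8, 31.6 and 44.3 CPM in tumors (2.91 ± 0.29). Tumors lay above mucosa for both. Cxcl14 had no UMI in mucosal epithelium and 2897 in tumor epithelium, from 0.665 to 51.4 CPM, at least 711-fold higher. Tumor 1 was the highest, and without it the bound was 411-fold. Cxcl9 and Cxcl10 overlapped between the groups, with Cxcl9 at 2.85 (adjusted p = 0.0159, not called without mucosa 1 or without mucosa 2) and Cxcl10 at 2.63. Cxcl12 (82 and 2 UMIs) passed with an adjusted p of 0.0489 and did not pass with mouse as a replicate block (adjusted p = 0.0980) or without any 1 mucosa library.

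In tumor epithelium 5 members were lower. Ccl28 stood at 45.1, 31.9 and 39.3 CPM in mucosa and at 2.53, 9.19 and 19.0 CPM in tumors (−2.32 ± 0.46, adjusted p = 0.000626). No member of the Ccr10 axis was called within absorptive epithelial-like, goblet-like or other epithelial cells. In the last of these Ccl28 was at 0.019, and at −1.44 with resolution 2 (adjusted p = 0.0038). Ccl6 stood at 271, 252 and 182 CPM in mucosa and at 17.4, 74.4 and 126 CPM in tumors (−1.99 ± 0.48, adjusted p = 0.00254), while it was higher in tumors over all cells. In the other epithelial cells, a class without goblet-like cells, it was called higher, at 1.03, 9.49 and 4.34 CPM in mucosa and 8.82, 16.3 and 32.2 CPM in tumors with overlap (1.83 ± 0.49, adjusted p = 0.00674, and 2.61 without mucosa 2), and it was not called at resolution 2 (adjusted p = 0.182). Over all epithelium every mucosa library was above every tumor for both. Ackr4 had 173 UMIs in mucosal and 6 in tumor epithelium (−5.47 ± 0.69, with −4.26 without mucosa 1 and −6.15 without tumor 5). Cx3cl1 differed little, at 10.9 to 11.3 CPM in mucosa and 7.13 to 11.3 CPM in tumors, with overlap (−0.58 ± 0.14, adjusted p = 0.00188). Ccl9 (−1.45 ± 0.46, adjusted p = 0.0131) was not called without mucosa 1 (adjusted p = 0.111). The mix of epithelial classes differed between the tissues: tumor epithelial-like cells numbered 12764 in tumors and 11 in mucosa, and goblet-like cells 565 and 4127. Its part in the higher and the lower values was not tested.

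**Figure D4:**
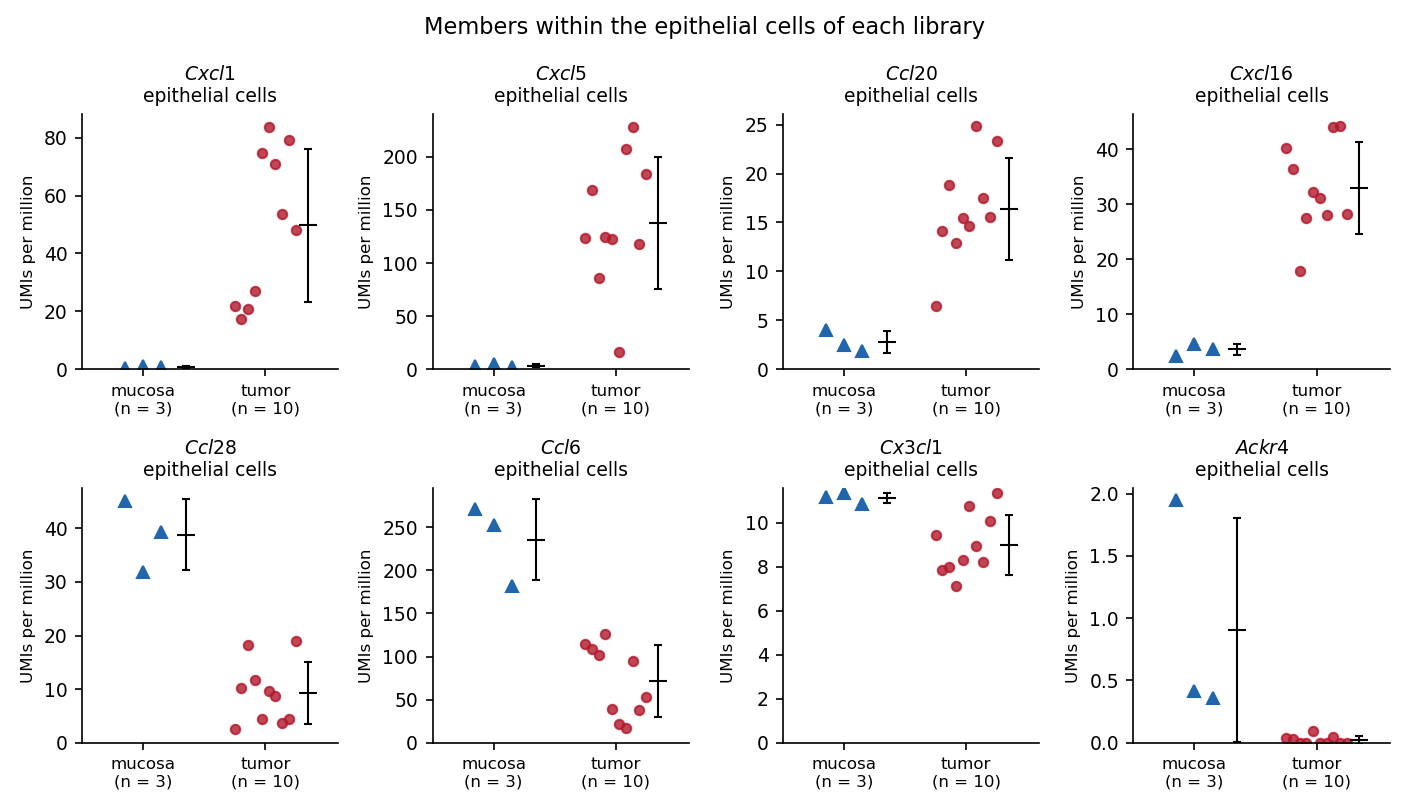
CPM of 8 members in the summed epithelial cells of each library, with the 3 mucosa samples as blue triangles, the 10 tumors as red points and the mean with its SD as black bars. Cxcl1, Cxcl5, Ccl20 and Cxcl16 are higher in every tumor, and Ccl28 and Ccl6 lower in every tumor. Cx3cl1 lies between 7.13 and 11.3 in tumors and overlaps with mucosa.

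Cxcl2 also rose in classes that are not known to make much of it, and neutrophil transcripts were found there too. For each 1000 UMIs of the neutrophil genes S100a8 and S100a9, tumors held 88.1 Cxcl2 UMIs in neutrophil-like cells, 225 in B cell-like, 408 in plasma cell-like, 566 in T or innate lymphoid-like, 614 in tumor epithelial-like, 6756 in Ly6c+ monocyte-like and 16149 in Inhba+ macrophage-like cells. Over all cells of a tumor the value was 118 to 217. Every tumor's value exceeded that range in Inhba+ (from 10487) and C1q+ macrophage-like (from 2656) and Ly6c+ monocyte-like cells (from 3113). The same held in tumor epithelial-like (from 396), T or innate lymphoid-like (from 284) and dendritic-like cells (from 223). The lowest tumor fell below the range in Paneth-like (82.1), goblet-like (40.9) and erythroid-like cells (107) and in the Gzma cluster (52.6). In B cell-like (126 to 518), plasma cell-like (100.3 to 1635), other epithelial (81.2 to 873) and absorptive epithelial-like cells (113 on average, 15.7 to 243) the tumors reached into or below it. In every class the part of free RNA in the differences of Cxcl2, Pf4 and Cxcl16 was not tested. Nor was its part in that of Cxcr2 in epithelium (655 UMIs in tumors and 5 in mucosa).

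Members were also compared within single epithelial classes, and differences between the classes were not tested. In absorptive epithelial-like cells 11 members were higher and 2 lower of 17, against 36.3% of genes passing (19.0% higher and 17.3% lower), and in the other epithelial cells 14 were higher and 1 lower of 22, against 43.6% (22.8% and 20.8%). Groups did not overlap for 21.8% and 23.6% of genes. Cx3cl1 was higher in tumor absorptive epithelial-like cells, at 28.4, 30.03 and 41.6 CPM against 15.4, 17.7 and 19.6 CPM in mucosa (0.98 ± 0.16), the reverse of its direction over all epithelium, but was not called when members entered the clustering genes (adjusted p = 0.263). Ccl25 was lower there, at 0 to 5.05 CPM against 8.03 to 11.2 CPM (−1.32 ± 0.28). Cxcl5 in this class ran from 0.937 to 392 CPM in tumors and from 6.36 to 29.2 CPM in mucosa, with overlap at the lowest tumor. In the other epithelial cells Ccl20 stood at 1.24, 17.5 and 91.1 CPM in tumors and 1.33, 0.259 and 1.12 CPM in mucosa (5.22), overlapping at the lowest tumor. Cx3cl1 was called higher in this class too (0.98), but not at resolution 2 or with members among the clustering genes. Ccl25 was called lower (−0.62), but not without mucosa 3. In both classes the tumor cells came mostly from 1 cluster (848 of 889 absorptive and 1576 of 1602 other) that was not the main mucosa cluster. Goblet-like cells were split in the same manner, with 461 of 565 tumor cells in 1 cluster and 2713 of 4127 mucosa cells in another. In goblet-like cells 3 of 11 members were higher (Cxcl2, Cxcl5 and Pf4) against 12.6% of genes passing, 8.07% higher and 4.57% lower. In erythroid-like cells 3 of 9 were higher (Cxcl2, Pf4 and Cxcl16) against 8.35% of genes passing, 4.58% higher and 3.77% lower, with 8.84% of genes not overlapping. Only tumors 1 to 4 had enough of these cells, so mouse C alone made up the tumor group. Pf4 (adjusted p = 0.292) and Cxcl16 (adjusted p = 0.211) were not called with mouse as a replicate block. The neutrophil genes S100a8 and S100a9 together stood at 1911 CPM in erythroid-like cells of tumors and at 0.976 CPM in those of mucosa.

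In T or innate lymphoid-like cells (7156 and 719), 8 members were higher and 3 lower of 31 tested, against 22.0% of genes passing, 12.4% higher and 9.66% lower; groups did not overlap for 20.1% of genes. Cxcr4 stood at 27.6, 6.89 and 5.73 CPM in mucosa and at 79.1, 111 and 190 CPM in tumors, every tumor above mucosa (2.81 ± 0.36, adjusted p = 2.18e-05, and 4.48 without mucosa 1). Cxcl10 stood at 25.6, 20.7 and 61.2 CPM in mucosa and at 76.6, 140 and 281 CPM in tumors (2.21 ± 0.41). Cxcl2 had no UMI in mucosa and 62.3 to 283 CPM in tumors, at least 85.2-fold higher. Tumors were above mucosa for both of these ligands as well. Cxcr6 was lower, at 368, 510 and 556 CPM in mucosa and 139, 210 and 323 CPM in tumors (−0.95 ± 0.22, adjusted p = 0.00432). Cxcr3 was lower too, at 70.0, 121 and 101 CPM in mucosa and 32.9, 47.1 and 61.2 CPM in tumors (−0.79 ± 0.20, adjusted p = 0.00989), and was not called without mucosa 2 or without mucosa 3. Neither receptor overlapped between the tissues. Cxcr5 (−2.58 ± 0.58) was not called without mucosa 1 (adjusted p = 0.0732). Pf4 had 85 UMIs in tumors against 0 in mucosa and was at least 2.25-fold higher, with an adjusted p of 0.0478, and was not called with mouse as a replicate block (adjusted p = 0.0556).

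The cluster led by Gzma, Cd160 and Cd7, genes found in intraepithelial lymphocytes, held 4169 mucosa cells, 13.9% to 22.8% of each mucosa library, and 490 tumor cells. It carried 93.3% of the Ccl5 UMIs of mucosa at 24277 ± 4239 CPM, 89.3% of those of Xcl1 at 510 ± 218 CPM and 87.3% of those of Ccl4 at 504 CPM. In the 8 tumors with enough of these cells, 3 members were higher and 4 lower of 11 tested, against 17.9% of genes passing, 10.9% higher and 6.93% lower, and 12.6% not overlapping. Cxcr4 stood at 1.57, 1.70 and 1.23 CPM in mucosa and at 26.9, 49.6 and 71.4 CPM in tumors (5.01 ± 0.38, adjusted p = 4.74e-09). Ccl5 stood at 26649, 19382 and 26799 CPM in mucosa and at 7354, 12420 and 16649 CPM in tumors (−0.89 ± 0.21, adjusted p = 0.00432), and was not called with the tumors of a mouse summed (adjusted p = 0.109). Cxcr3 was lower (−1.01 ± 0.18), at 26.1 to 50.8 CPM against 83.2 to 87.2 CPM. The tissues did not overlap for these 3 members. Among ligands, Cxcl10 (1.55) and Cxcl2 (83 UMIs against 1, for a ratio of 408 with a counting interval of 71.2 to 16293, 216 without mucosa 1 and at least 111-fold without mucosa 2) were higher. Cxcr6 overlapped (34.9 to 210 CPM against 152 to 193 CPM, adjusted p = 0.0344), and 10 of the alternatives lost it, among them those without mucosa 2 or 3 and without tumors 3, 4, 6, 7, 8 or 10.

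In B cell-like cells (4545 and 1098), 4 members were higher and 4 lower of 9 tested, against 39.4% of genes passing, 18.1% higher and 21.3% lower, and 17.5% not overlapping. Ccr7 stood at 92.1, 92.2 and 77.5 CPM in mucosa and at 307, 375 and 524 CPM in tumors (2.18 ± 0.19, adjusted p = 1.53e-08). Ccr6 went down, from 183, 271 and 284 CPM in mucosa to 70.1, 82.3 and 141 CPM in tumors (−1.5 ± 0.17, adjusted p = 8.09e-07). The 2 receptors separated the tissues fully in opposite directions. Cxcr4 stood at 141, 32 and 49.1 CPM in mucosa and at 100, 225 and 333 CPM in tumors, overlapping through mucosa 1 (1.5 ± 0.32, and 2.45 without it). Cxcr3 (−3.12 ± 0.54) and Ccr1 (−3.19 ± 0.55) were lower with overlap. Without mucosa 2 they were −2.41 and −2.47, and Cxcr3 was −3.74 without mucosa 1. Cxcl2 had 705 UMIs in tumors against 2 in mucosa, for a ratio of 93.8 (exact 95% counting interval 25.9 to 776), and 42.7 without mucosa 1. Cxcr5, at 16.7 to 84.7 CPM in tumors and 31.0 to 47.3 CPM in mucosa, passed narrowly (0.61, adjusted p = 0.0488) and was lost in 13 alternatives, those without mucosa 2 or 3 and without tumors 1, 3, 4, 9 or 10 among them. Ccl5 (−2.12, adjusted p = 0.0267) was not called without mucosa 2 (−0.78), tumor 7 or tumor 10, and was −2.76 without mucosa 1 and −3.24 without tumor 2.

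In plasma cell-like cells (3632 and 417), 3 members were higher and 2 lower of 14 tested, against 22.4% of genes passing, 10.4% higher and 12.0% lower, and 30.2% not overlapping. Ccr10, the receptor for Ccl28, stood at 196, 122 and 163 CPM in mucosa and at 231, 287 and 358 CPM in tumors, all tumors above mucosa (1.45 ± 0.18, adjusted p = 4.1e-05). Cxcr3 stood at 19.6, 65.8 and 89.1 CPM in mucosa and at 3.86, 10.2 and 23.3 CPM in tumors, with overlap (−1.78 ± 0.41, adjusted p = 0.00593), and was not called without mucosa 3 (−1.19, adjusted p = 0.115). Ccl5 (−2.34, adjusted p = 0.0286) rested on mucosa 1, at 377 CPM there against 14.4 and 31.2 CPM in the others, and was −0.061 without it. Cxcl2, with 1173 tumor UMIs against 0, was at least 23.1-fold higher, and Cxcl3 (102 against 0, at least 2.0-fold) was not called without any 1 of the mucosa libraries.

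**Figure D5:**
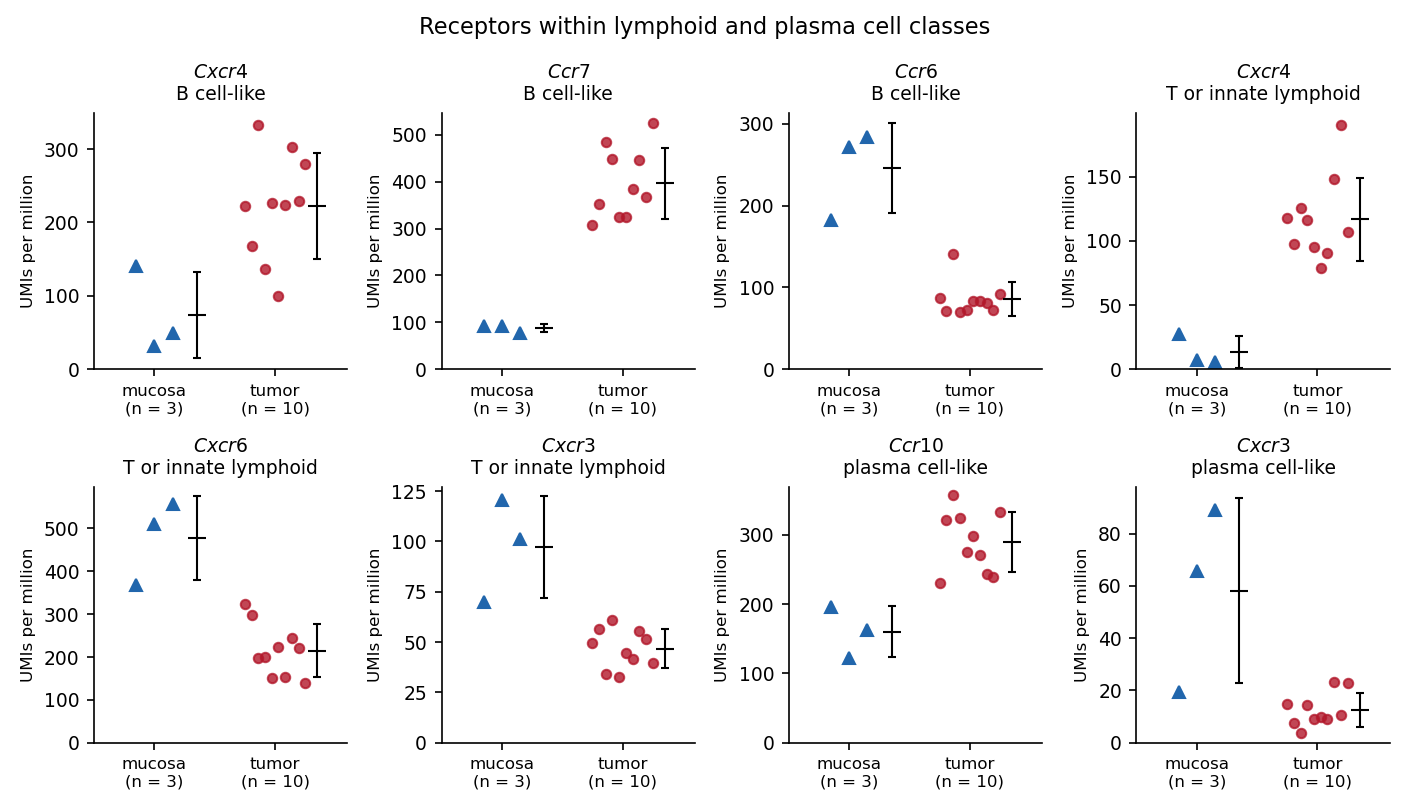
CPM of 6 receptors within lymphoid and plasma cell classes of each library, with the 3 mucosa samples as blue triangles, the 10 tumors as red points and the mean with its SD as black bars. Ccr7 in B cell-like cells and Ccr10 in plasma cell-like cells are higher in every tumor, and Ccr6 in B cell-like cells and Cxcr6 in T or innate lymphoid-like cells are lower in every tumor.

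Only 91 Ly6c+ monocyte-like and 75 dendritic-like cells came from mucosa, so these comparisons are imprecise. In the monocyte-like class 6 members were higher and 1 lower of 30 tested, against 6.05% of genes passing, 4.83% higher and 1.22% lower; 21.5% of genes did not overlap. Cxcl2 stood at 37.9, 28.2 and 10.9 CPM in mucosa and at 1892, 2930 and 4284 CPM in tumors, far apart (7.35 ± 0.40, adjusted p = 1.61e-09, and 7.95 without mucosa 1). Ccl2 stood at 44.2, 56.3 and 54.4 CPM in mucosa and at 128, 224 and 405 CPM in tumors, also without overlap (2.64 ± 0.47, adjusted p = 0.00195). Cxcl3 had no UMI in mucosa and was at least 26.3-fold higher, though not called without mucosa 1 or without mucosa 3. Ccl3 (2.72) and Ccl7 (887 UMIs against 0, at least 1.86-fold) were higher, each with an adjusted p of 0.0329, and both were lost without any 1 of the mucosa libraries. Cx3cr1 was lower (−1.57 ± 0.46, adjusted p = 0.0478) in a call lost in 8 alternatives, those without mucosa 1 or 3 and without tumors 3, 6, 7, 8 or 10 among them.

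In dendritic-like cells 5 members were higher and 4 lower of 30 tested, against 6.28% of genes passing, 4.22% higher and 2.05% lower; 16.7% of genes did not overlap. The clusters of the class were mixed differently by tissue, with the Siglech cluster at 27 of 75 mucosa and 349 of 3557 tumor cells and the Fscn1 cluster at 11 and 927. Ccl17 stood at 63.8, 109 and 0 CPM in mucosa and at 155, 394 and 732 CPM in tumors (3.20 ± 0.55, adjusted p = 0.00123). Cxcr4 had 3 UMIs in mucosa and 1627 in tumors, a ratio of 7.60 (exact 95% counting interval 2.60 to 36.9). All 3 were in mucosa 1, and without it the bound was at least 3.00-fold. Ccr2 stood at 423, 109 and 99.7 CPM in mucosa and at 23.7, 45.2 and 87.6 CPM in tumors (−2.04 ± 0.42, adjusted p = 0.0046). Ccl6 stood at 801, 367 and 44.3 CPM in mucosa and at 26.7, 44.6 and 107 CPM in tumors (−2.81 ± 0.44, adjusted p = 0.000521). Ccl6 overlapped through mucosa 3 and the other 3 did not. Without mucosa 1, Ccr2 (−0.61) and Ccl6 (−1.44) were not called, neither was called at resolution 2, and Cxcr3 (−2.71) was not called without mucosa 1 or without mucosa 3. Ccl9 (−1.68, adjusted p = 0.0395) was not called in 7 alternatives, among them mouse as a replicate block (adjusted p = 0.0514), those without mucosa 2, tumor 2 or tumor 9, and that without mucosa 1, where it was −0.19 (adjusted p = 0.942).

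Among tumors, 3 of 55 members differed between the 3 mice, against 1.39% of all genes. Mean Cxcr2 was 152 CPM in mouse A, 115 CPM in mouse B and 73.8 CPM in mouse C (adjusted p = 0.0487). Mean Cxcl1 was 54.9, 51.9 and 20.8 CPM in the same order (adjusted p = 0.0234), so that both were lowest in the youngest mouse, and mean Ccl27a was 6.65, 5.19 and 9.79 CPM (adjusted p = 0.0306). Age and mouse cannot be told apart here, and leaving out 1 tumor at a time gave 0 to 4 calls.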

How the data were processed

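RNA of single cells from 10 colon tumors and 3 adjacent mucosa samples was captured with 10x Chromium 3′ chemistry. The authors deposited raw UMI counts per gene and barcode, made with Cell Ranger 6.0.0 on mm10 according to the submitters' processing notes. The methods of the paper name another version of Cell Ranger. Their annotation is not given in the sources used here. Counts come from transcript ends and were not divided by gene length.

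A barcode was kept if it had 500 or more UMIs, 200 or more genes and at most 25% mitochondrial UMIs (7797 removed by the gene minimum and 10902 by the mitochondrial limit). Simulated-doublet scores then removed 0.8% per 1000 barcodes in each library, 10397 in all. Cells were clustered by Leiden at resolution 1 on 2000 variable genes without the members, with 30 principal components and 20 neighbors. Clusters were named where at least 3 markers of a fixed list were detected in at least 10% of cells with a log2 fold of at least 1, the list's mean log2 fold was at least 1 and no other list had more genes among the top 10 by fold. That naming rule and the 8 dissociation genes were chosen after the cluster profiles had been seen. Of 5 clusters with a low median UMI count for their libraries, 3 had markers of their list among the top 10 genes and were named, among them 2094 C1q+ macrophage-like cells.

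UMIs were summed per library and class, for classes with at least 20 cells in each of at least 4 tumors and 2 mucosa libraries. The main test was edgeR 4.0.16's quasi-likelihood test (R 4.3.3, TMM scaling, filterByExpr) of tumor against mucosa, with Benjamini-Hochberg adjustment over all genes tested and a threshold of 0.05. The test was also run on simulated counts with known changes. Those libraries were drawn independently and without a mouse effect, so that run cannot judge tumors of 1 mouse taken as replicates. CPM are UMIs per 1000000 UMIs of the library or class. Fold bounds against 0 use a floor of 3 counts over the group, and ratios with 1 to 3 counts have exact 95% intervals; both cover counting error only. Samples of 1 mouse are not independent, and p-values over 10 tumors take them as replicates. Samples with the same animal code in the labels came from 1 mouse and are paired by it, and the main test had no block; the deviations of a mouse's mucosa and tumors from their group means correlated at 0.131 for mouse A, 0.032 for B and 0.089 for C over 17437 genes.

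Alternatives were DESeq2 1.42.0, its size factors, no filter, mouse as replicate block, tumors summed per mouse, a mitochondrial limit of 10%, minimums of 1000 UMIs and 500 genes, doublets kept, resolution 2, members among the clustering genes, and each library left out. Named in every setting were the 14 ligands and 10 receptors with the highest mean in tumors, the 6 ligands and 4 receptors highest in mucosa, up to 4 called members with the largest difference each way per class comparison, and members of the counted axes; 1 member that this rule names is not reported here, though the counts include it. Members were chosen by their symbols, whereas axes and marker lists were chosen with earlier results of these data known. Gene positions are from GENCODE vM21 (62 of 69 rows matched) and promoters from RefSeq on GRCm38.p6.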

Additional observations from a re-analysis of the deposited data

Results flagged for a closer look

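Among the 10 tumors, 1 tumor stood far from the nearest other in 10 of 56 members examined by Dixon's criterion (a gap above 0.466 of the range). About 1 in 20 such groups would be picked by chance if values were independent and normally distributed. Tumors of 1 mouse are not independent and CPM were not transformed, so that rate may not hold here. Cxcl3 was highest in tumor 10 (680 CPM). Tumor 6 was highest for Ccr2 (89.8 CPM) and Ccl2 (126 CPM). Cxcl14 was highest in tumor 1 (46.1 CPM), and Cxcr1 in tumor 9 (5.62 CPM). Ackr1 was also highest in tumor 9 (1.64 CPM). Tumor 5 was highest for Ccl11 (5.72 CPM) and Ackr4 (0.593 CPM), and it held the most fibroblast-like cells (0.558% of its cells). Ccl21a was highest in tumor 4 (3.02 CPM) and Ccr4 in tumor 10 (1.00 CPM).

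Ccl25 lay on opposite sides of mucosa in 2 classes. In T or innate lymphoid-like cells all tumors lay above all mucosa libraries without passing the test (log2 fold change 0.73, adjusted p = 0.0871), and in absorptive epithelial-like cells all tumors lay below and it was called lower (−1.32, adjusted p = 0.00149). The difference between the classes was not tested.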

How the results depend on the processing

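With 3 mucosa libraries, 1 per mouse, many lost calls came from leaving 1 of them out. Of 546 counts of members under the alternatives, 458 were within 1.5 times the main count. In all cells 40 of 47 called members passed under every alternative that tested them, and in epithelium 21 of 30. The same held for 6 of 8 in B cell-like, 4 of 11 in T or innate lymphoid-like and 5 of 7 in the Gzma cluster. It held for 2 of 7 in Ly6c+ monocyte-like, 3 of 9 in dendritic-like, 2 of 5 in plasma cell-like and 1 of 3 in erythroid-like cells. Among epithelial classes it held for 6 of 13 in absorptive epithelial-like, 2 of 3 in goblet-like and 10 of 15 in other epithelial cells. Whether tumor and mucosa differ through tissue or dissociation cannot be told apart.

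The mouse as replicate block, a pairing by animal, lost Cxcl12 in epithelium, Pf4 in T or innate lymphoid-like cells, Ccl9 in dendritic-like cells, and Pf4 and Cxcl16 in erythroid-like cells, where 1 member was higher instead of 3; it gave 2 members lower instead of 1 in the other epithelial cells and lost no other call.

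Counts that moved by over 1.5 times were these, as members higher or lower against the main value. In epithelium 8 were lower with doublets kept (5). In B cell-like cells 7 were higher with DESeq2 and 9 with no filter (4), and 7 lower with no filter (4). In Ly6c+ monocyte-like cells 3 were higher with DESeq2 size factors (6), and the lower count (1) was 5 with DESeq2, 3 with no filter, 0 at the 10% mitochondrial limit and 2 at resolution 2. In T or innate lymphoid-like cells 5 were higher at resolution 2 (8). In absorptive epithelial-like cells the higher count (11) was 17 with DESeq2, 21 with no filter and 6 with members among the clustering genes, and the lower count (2) was 1 with DESeq2, with tumors summed per mouse and with doublets kept, and 0 at the 10% limit. In dendritic-like cells the lower count (4) was 7 with DESeq2 and 1 at resolution 2, and the higher count (5) was 3 at resolution 2. In erythroid-like cells the higher count (3) was 5 with DESeq2, 15 with no filter, 6 with tumors summed per mouse, which left 1 tumor sample assumed to vary like the mucosa, and 7 with doublets kept, and the lower count (0) was 1, 2 and 1 with DESeq2, no filter and doublets kept. In goblet-like cells the higher count (3) was 11, 14, 8 and 12 with DESeq2, no filter, tumors summed per mouse and doublets kept, and the lower count (0) was 1 with DESeq2, no filter and doublets kept. In the other epithelial cells the lower count (1) was 2 at the 10% limit and with doublets kept, and 3 at resolution 2. In plasma cell-like cells the higher count (3) was 7 with DESeq2, 5 with no filter and 13 with doublets kept, and the lower count (2) was 4, 5, 1 and 1 with DESeq2, no filter, tumors summed per mouse and doublets kept. In the Gzma cluster the higher count (3) was 5 with DESeq2 and 7 with no filter, and the lower count (4) was 8 with no filter. Between mice DESeq2 gave 8 calls (3). The cause was not tested.

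Leaving out 1 library at a time gave ranges of members higher and lower of 38 to 42 and 4 to 6 in all cells, 19 to 26 and 5 to 6 in epithelium, 3 to 4 and 2 to 4 in B cell-like, 2 to 7 and 0 to 1 in Ly6c+ monocyte-like, 4 to 8 and 2 to 5 in T or innate lymphoid-like, 7 to 12 and 1 to 2 in absorptive epithelial-like, 4 to 6 and 1 to 5 in dendritic-like, 1 to 4 and 0 to 1 in erythroid-like, 2 to 4 and 0 to 1 in goblet-like, 13 to 15 and 0 to 2 in other epithelial, 2 to 4 and 1 to 2 in plasma cell-like cells, and 2 to 3 and 3 to 4 in the Gzma cluster, with 0 to 4 calls between mice.

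The sign turned for Cxcl9 in Ly6c+ monocyte-like cells at resolution 2 (6.28 against −0.13), Ccl6 in T or innate lymphoid-like cells with doublets kept (1.89 against −0.15), Ccl9 in dendritic-like cells at resolution 2 (1.04 against −1.68), Ccl5 in goblet-like cells with DESeq2 (−2.35 against 1.57), and Cx3cl1 (−0.056 against 0.98) and Ccl28 (−1.44 against 0.019) in other epithelial cells at resolution 2. By class level, the first class became Ly6c+ monocyte-like for Cxcl10 at resolution 2 or with members among the clustering genes, and T or innate lymphoid-like for Ccl5 and Xcl1 at resolution 2.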

Other observations

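The fibroblast-like cluster reached 20 cells in 1 tumor library only, and entered no comparison. In that library it held 671 CPM of Ccl11, 712 CPM of Ccl2, 235 CPM of Cxcl12, 60.1 CPM of Ackr1 and 63.9 CPM of Ackr4. With doublets kept, fibroblast-like cells became the first class in tumors for Cxcl12, Cxcl13, Ccl11, Ackr1, Ackr3, Ackr4, Ccl21a and Cxcl1.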
